A study of Mus musculus with 14 samples.

Results

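Ch25h, the gene of cholesterol 25-hydroxylase, was lower in the brain of aged mice on either a β-lapachone diet or calorie restriction than in mice on the control diet, and on the calorie-restricted arrays its probe did not rise above background. The genes of the enzymes that build cholesterol, Hmgcs1, Idi1, Fdps, Sqle and Lss, stayed within 0.59 on the log2 scale of their control means in brain, and none of them passed the test between diets in either tissue. The comparison that separated the synthesis genes was the one between tissues. After background correction and normalization Sqle and Hmgcs1 were 15.4-fold and 5.99-fold higher in brain than in muscle. Members were chosen by gene symbol from a list of 7 genes, the 6 synthesis genes Hmgcs1, Idi1, Fdps, Fdft1, Sqle and Lss, and Ch25h. Of these, 6 had a probe in the annotation of the array (7 probes, since Sqle has 2), out of 16593 genes with a symbol. Fdft1, the gene of squalene synthase, was not analysed here.

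Total RNA of brain cortex and of skeletal muscle was hybridized to 14 Illumina Sentrix Mouse-8 v2 BeadChip arrays, on which beads carry gene-specific probes and a transcript is read as a brightness. The brain arrays came from mice given β-lapachone (βL, 2 arrays), on calorie restriction (CR, 2 arrays) and untreated controls (2 arrays), and the muscle arrays from the same diets (3, 3 and 2 arrays). The mice were male C57BL/6J (named C57BL/6 in the methods), βL was given at 0.066% of a normal diet, CR was 70% of the normal diet, controls ate the normal diet freely, and diets started at 13 months of age. βL is a quinone that accepts electrons from NADH through the enzyme NQO1. The time on the diets before the arrays, the muscle taken and whether replicate arrays came from separate mice are not given in the sources used here. The p-values therefore describe the scatter among these arrays, part or all of which may be technical.

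On each brain array 53.9% to 55.4% of probes were above background, meaning a detection p under 0.05, and on each muscle array 43.3% to 45.9%. Defining genes separated the tissues in part. All 7 muscle fibre genes checked were above background on 8 of 8 muscle arrays. In brain, Ckm, Myh4, Mb and Tnnt3 were not above background on any array, Acta1 and Pvalb were on 6 and Tnni2 on 1. Of 7 neuron genes, 5 were above background on all 6 brain arrays, and the probes of Snap25 and Nefl were not above background on any. In muscle, Stmn2 and Camk2a were above background on all 8 arrays and the other 5 neuron genes on none. Muscle control replicate 1 stood apart, with a mean correlation of 0.971 with the other muscle arrays against 0.977 to 0.984 for the rest. On it 7 of 9 hepatocyte genes were above background, Ttr, Apoa1, Serpina1b and Mup2 among them, with a summed intensity of 6038, against 0 of 9 genes and sums of 239 to 278 on the other 7 muscle arrays, and Alb was not above background on any. Its slow muscle fibre genes summed to 762, against 33238 to 184790 on the others, so the muscle results are also given without it. With 2 or 3 arrays a group, precision is limited by how few arrays there are.

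Cholesterol is made from acetyl-CoA through the mevalonate pathway. HMG-CoA synthase (Hmgcs1) supplies the substrate of HMG-CoA reductase, isopentenyl diphosphate isomerase (Idi1) and farnesyl diphosphate synthase (Fdps) build the isoprenoid chain, squalene synthase (Fdft1) joins it, squalene epoxidase (Sqle) oxidizes squalene, and lanosterol synthase (Lss) closes the rings. The transcription factor SREBP2 raises these genes together when membranes run low in sterol, and oxysterols hold SREBP2 back by binding INSIG proteins. Ch25h makes one such oxysterol, 25-hydroxycholesterol, and is known as an interferon-induced gene of macrophages. The brain makes its own cholesterol because lipoproteins of the blood do not cross into it, and neurons export the surplus after 24-hydroxylation by Cyp46a1.

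Promoter sequence is shown for Hmgcs1 and Idi1, the synthesis genes at the head of the pathway with an entry in the promoter table, and for Ch25h, the member that moved. Each run holds the 250 bases before the start of the gene on its own strand, from RefSeq on GRCm38.p6, with motif matches in capitals. The table held 4 of the 7 members, Lss being the other. On the same build Sqle lies on chromosome 15 (59315092 to 59331193), Fdps on chromosome 3 (89093588 to 89101967) and Lss on chromosome 10 (76531565 to 76557139).
Hmgcs1, chr13:119690101-119690350, plus strand: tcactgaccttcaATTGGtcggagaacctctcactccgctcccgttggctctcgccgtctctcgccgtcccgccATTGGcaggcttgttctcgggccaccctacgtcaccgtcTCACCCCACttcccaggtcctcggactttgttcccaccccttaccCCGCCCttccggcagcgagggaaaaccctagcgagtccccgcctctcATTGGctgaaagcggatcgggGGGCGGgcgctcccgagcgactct
Idi1, chr13:8885356-8885605, plus strand: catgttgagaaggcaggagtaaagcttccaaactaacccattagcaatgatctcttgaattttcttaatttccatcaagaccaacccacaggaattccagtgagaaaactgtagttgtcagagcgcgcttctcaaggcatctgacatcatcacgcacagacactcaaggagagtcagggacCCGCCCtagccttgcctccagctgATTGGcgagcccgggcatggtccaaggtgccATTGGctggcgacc
Ch25h, chr19:34475149-34475398, minus strand: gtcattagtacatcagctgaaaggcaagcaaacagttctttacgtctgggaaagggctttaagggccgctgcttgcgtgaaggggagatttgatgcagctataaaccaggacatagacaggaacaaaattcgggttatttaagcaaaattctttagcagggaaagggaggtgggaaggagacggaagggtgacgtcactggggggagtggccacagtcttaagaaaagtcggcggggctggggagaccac

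The motifs searched on both strands were TCACNCCAC and CACCCCAC, forms of the sterol regulatory element to which SREBP2 binds, CCAAT, the NF-Y box, GGGCGG, the GC box of SP1, and CACGTG, the E-box. Hmgcs1 held a TCACNCCAC match starting 137 bases before the gene, within which the CACCCCAC match lies, with CCAAT matches at 237, 176 and 45 bases and GC boxes at 92 and 24 bases before it. Idi1 held CCAAT matches 45 and 14 bases and a GC box 69 bases before its start. Lss also held a CCAAT match and 2 GC boxes, but its entry in the promoter table starts at another base than the gene does in the annotation, so neither its sequence nor distances are given. The Ch25h window held none of the 5 motifs. Over all 32851 promoters of the table, counted from 250 bases before to 50 bases after the start, TCACNCCAC was in 1.24%, CACCCCAC in 2.87%, CCAAT in 37.4%, GGGCGG in 35.7% and CACGTG in 7.15%. Of 17 genes of a broader sterol synthesis list with a promoter in the table, 1 held TCACNCCAC, 2 CACCCCAC, 15 CCAAT, 15 GGGCGG and 3 CACGTG. A gene with several promoters, such as Dhcr7, counted if any of them held the motif. The shares over the table are per promoter, so the units differ. These matches describe letters in a window and are not evidence of binding.

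Whether the diets changed the synthesis genes in brain was asked first, on intensities normalized within brain and given as log2. Hmgcs1, the most upstream of them, was at 13.41 and 13.57 on βL arrays, 13.49 and 13.40 on CR arrays, and 13.29 and 13.35 on control arrays. Idi1 was at 6.21 and 6.35 on βL, 5.76 and 6.03 on CR, and 5.68 and 5.69 on control. For both genes every array of either diet lay above both control arrays, as was the case for 19.8% of all genes tested on βL and 19.1% on CR. Before normalization Hmgcs1 was at 10327 and 10816 on βL, 11930 and 11087 on CR, and 11049 and 10445 on control. There βL overlapped control, and both CR arrays lay above the others. Idi1 lay near background in brain, with detection p-values up to 0.0163. Before normalization it read 117 and 112 on βL, 100.8 and 109 on CR, and 132 and 92.7 on control. The control readings spanned those of both diets, and the βL readings lay above the CR readings.

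Fdps was at 10.83 and 10.96 on βL arrays, 10.90 and 10.78 on CR arrays, and 10.91 and 10.75 on control arrays, so that the diets overlapped throughout. Sqle was at 11.10 and 11.12 on βL, 10.98 and 11.05 on CR, and 10.94 and 11.01 on control. Only the βL arrays of Sqle were clear of the control arrays. Lss was at 7.55 and 7.65 on βL, 6.77 and 7.06 on CR, and 7.16 and 7.38 on control, with CR lowest and βL highest and no overlap, an order without overlap that 1.8% of all genes tested had. Before normalization its βL readings (227 and 220) overlapped those of control (229 and 206), and those of CR (158 and 181) were below both.

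**Figure D1:**
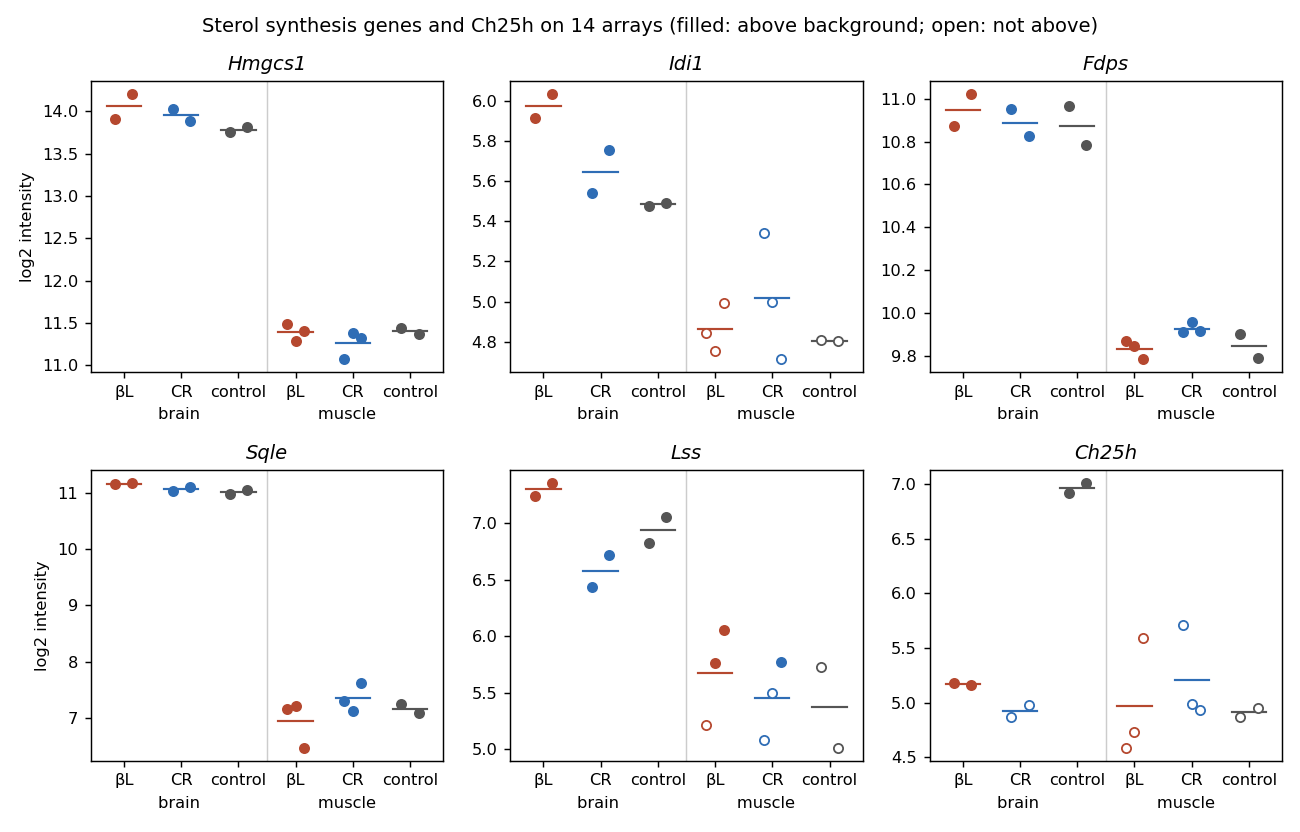
Log2 intensity (vertical axis) of the 6 genes with a probe on each of the 14 arrays, all arrays normalized together, with brain left and muscle right and βL, CR and control from left to right in each. Points are arrays, lines group means, and open points are arrays on which the probe was not above background. Ch25h is high on the 2 control brain arrays alone. Hmgcs1, Sqle, Fdps, Lss and Idi1 lie higher on every brain array than on any muscle array, the muscle points of Idi1 all being open.

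With βL over control in brain, Idi1 was 0.59 higher on the log2 scale (SE 0.11, 95% interval 0.32 to 0.87), a 1.51-fold difference that did not pass after Benjamini-Hochberg adjustment over 9956 genes in limma (adjusted p = 0.184). Lss had a log2 fold change of 0.33 (SE 0.13, adjusted p = 0.557), Hmgcs1 one of 0.17 (adjusted p = 0.698), Sqle 0.14 (adjusted p = 0.713) and Fdps 0.06 (adjusted p = 0.919). All 5 were above 0, and for 4 of the 5 (Fdps being the exception) both βL arrays lay above both control arrays, as they did for 19.8% of all genes tested. The size for Idi1 depended on how background was treated, falling to 0.19 (adjusted p = 0.411) in the normalized values that the authors deposited.

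With CR over control in brain, the largest difference among the synthesis genes was that of Lss, with a log2 fold change of -0.35 (SE 0.13, 95% interval -0.66 to -0.04), which did not pass (limma adjusted p = 0.565). Idi1 had a log2 fold change of 0.21 (adjusted p = 0.727), Hmgcs1 0.12 (adjusted p = 0.803), Sqle 0.04 (adjusted p = 0.932) and Fdps 0.01 (adjusted p = 0.992). The upper ends of their 95% intervals ran up to 0.48, for Idi1, and the lower ends down to -0.24, for Fdps. The second, dimmer probe of Sqle gave 0.05 for βL and 0.23 for CR.

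Set directly against each other, βL and CR differed most in Lss, by 0.68 on the log2 scale in favour of βL (SE 0.13, 1.60-fold, limma adjusted p = 0.205). Idi1 was 0.39 higher on βL (adjusted p = 0.411), and Hmgcs1, Sqle and Fdps differed by at most 0.09. The second probe of Sqle gave -0.17, in the opposite direction to the first. No member passed in this comparison, in which 0.281% of all genes tested did and 932 had an unadjusted p under 0.05, Lss, Idi1 and Ch25h among them. The Lss difference came closest to the threshold when no background was subtracted, with an adjusted p of 0.0661.

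Of the 23 genes of the wider sterol synthesis list 16 could be tested in brain, and 0 passed on either diet. An unadjusted p under 0.05 in limma was reached by 2 on βL and 2 on CR, beside 869 and 811 of all 9956 genes tested. The median log2 fold change was 0.05 for βL, with 12 of 16 above 0, and 0.05 for CR, with 11 of 16 above 0, beside medians of -0.00 and 0.00 over all genes tested. Cyp51, the lanosterol demethylase, had values of 0.23 on βL and 0.21 on CR (adjusted p = 0.597 and 0.667), and Nsdhl, a sterol dehydrogenase, -0.06 on βL and 0.26 on CR (adjusted p = 0.915 and 0.557). At the other end of the list Sc5d, which desaturates the sterol ring late in the pathway, was at -0.16 on βL and -0.33 on CR (adjusted p = 0.815 and 0.645). Insig1, the gene of an INSIG protein and itself a target of SREBP2, was at 0.30 on βL (adjusted p = 0.488) and 0.06 on CR (adjusted p = 0.923). It belongs to a list of SREBP2 control and uptake genes of which 0 of 9 passed.

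**Figure D2:**
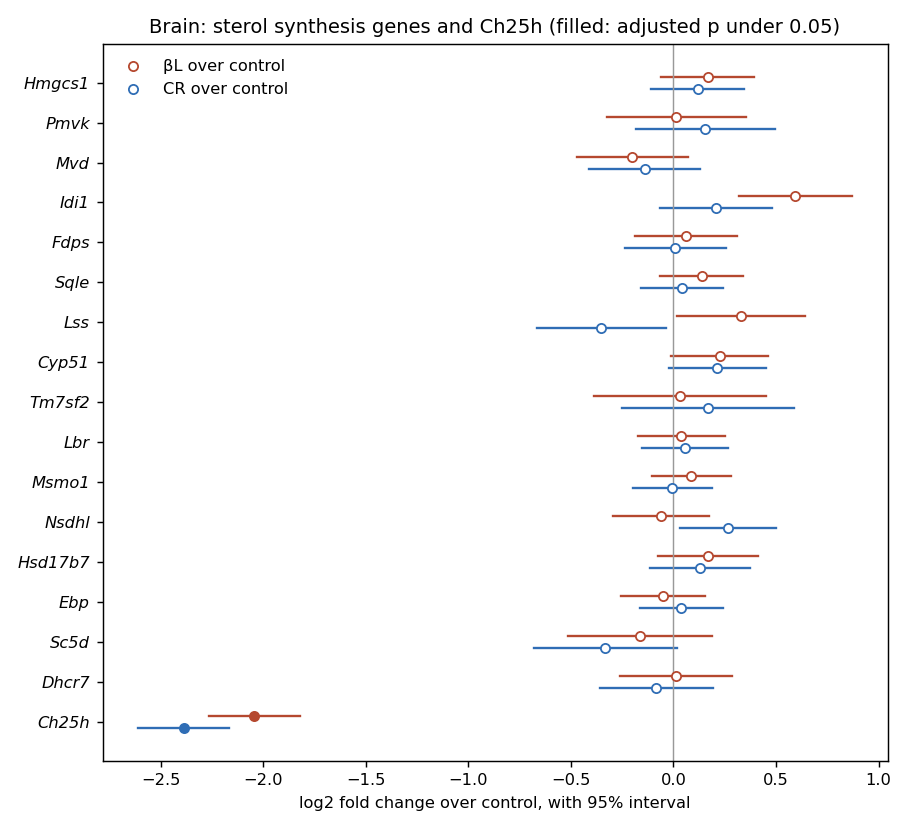
Log2 fold change over control in brain with its 95% interval (horizontal axis) for the 16 sterol synthesis genes tested, in pathway order, and Ch25h, with βL drawn above CR for each gene. The intervals of the synthesis genes lie within 1 log2 unit of 0 and none is filled, while both values of Ch25h, -2.04 on βL and -2.39 on CR, are filled.

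Ch25h was the one member that changed with diet in brain. Before normalization its probe read 80.8 and 71.8 on βL arrays, 70.5 and 71.7 on CR arrays, and 240 and 201 on control arrays. Both control arrays thus read far above every array of either diet. Its detection p was 0.0489 and 0.0401 on βL arrays, at the edge of background, 0.189 and 0.118 on CR arrays, and 0 on both control arrays.

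After normalization Ch25h was at 5.26 and 5.23 on βL arrays, 4.83 and 4.98 on CR arrays, and 7.25 and 7.34 on control arrays. It fell by 2.04 on the log2 scale on βL (SE 0.09, 4.12-fold, limma adjusted p = 0.000497), in a comparison in which 0.181% of genes tested were called lower, and ranked 4th of 9956 by p. On CR it was at least 4.09-fold lower than on control, the bound set by the lowest signal above background (measured log2 difference -2.39, SE 0.09, adjusted p = 0.000187), where 0.221% of genes tested were called lower. Both comparisons use the same 2 control arrays and are not independent of each other. Between βL and CR no fold can be given, since CR was below background, and the measured log2 difference of 0.34 (95% interval 0.12 to 0.56) did not pass (adjusted p = 0.378).

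The size of the Ch25h difference depended on the handling of background, and the call did not. Without background correction the log2 differences were -1.26 on βL and -1.46 on CR, and in the normalized values that the authors deposited they were -0.80 and -0.91, all with adjusted p at most 0.000186. The methods' t-test did not call it (adjusted p = 0.314 on βL and 0.481 on CR) and called 0 of 9956 genes on either diet.

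Since Ch25h is expressed by macrophages and induced by interferon, lists of such genes are given beside it. Summed normalized intensities of 7 macrophage and microglia genes with a probe were 3106 to 3337 on βL arrays, 3221 to 3379 on CR arrays, and 4345 to 4391 on control arrays, so that the controls were higher here too, by a smaller factor. Of these 7 genes, all above background on all 6 arrays, Lyz2 (lysozyme) was called lower on βL (log2 fold change -1.24, adjusted p = 0.00885) and on CR (-0.93, adjusted p = 0.0316), and 1 of 7 was above 0 on βL and 0 of 7 on CR. Cx3cr1, a microglial receptor, was at 0.08 on βL and -0.37 on CR (adjusted p = 0.962 and 0.779). The 9 interferon-response genes with a probe summed to 1270 on both βL arrays, 1250 to 1254 on CR arrays, and 1656 to 1681 on control arrays, with 0 of the 6 genes tested called and 0 of 6 above 0 on either diet, and with Ifit1, Irf7 and Oas1a not above background on any array. Their part in the Ch25h difference was not tested, and in bulk tissue fewer cells of a type and less RNA per cell cannot be told apart.

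Choroid plexus genes summed to 25291 to 27832 on βL arrays, 3751 to 3841 on CR arrays, and 11765 to 13058 on control arrays, with 5 of 6 called higher on βL and 3 of 6 called lower on CR. Endothelial genes summed to 3244 to 3315 on βL, 2849 to 3182 on CR, and 3073 to 3285 on control. Control overlapped each diet, and βL lay above CR. Red cell genes summed to 10761 to 11788 on βL, 4350 to 4665 on CR, and 5850 to 5914 on control, with Hba-a1 called higher on βL (log2 fold change 0.94, adjusted p = 0.0126) and Hbb-b2 not above background on any array. Fibroblast and meninges genes summed to 4678 to 4761 on βL, 3782 to 4140 on CR, and 4220 to 4518 on control, with 0 of 5 tested called and Col1a1, Col1a2 and Col3a1 not above background. Hepatocyte genes, whose list shares Ttr with that of the choroid plexus, summed to 24407 to 27005 on βL, 3652 to 3730 on CR, and 11459 to 12767 on control, with Alb at background throughout. The part of these cell types in the Ch25h difference was not tested either.

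**Figure D3:**
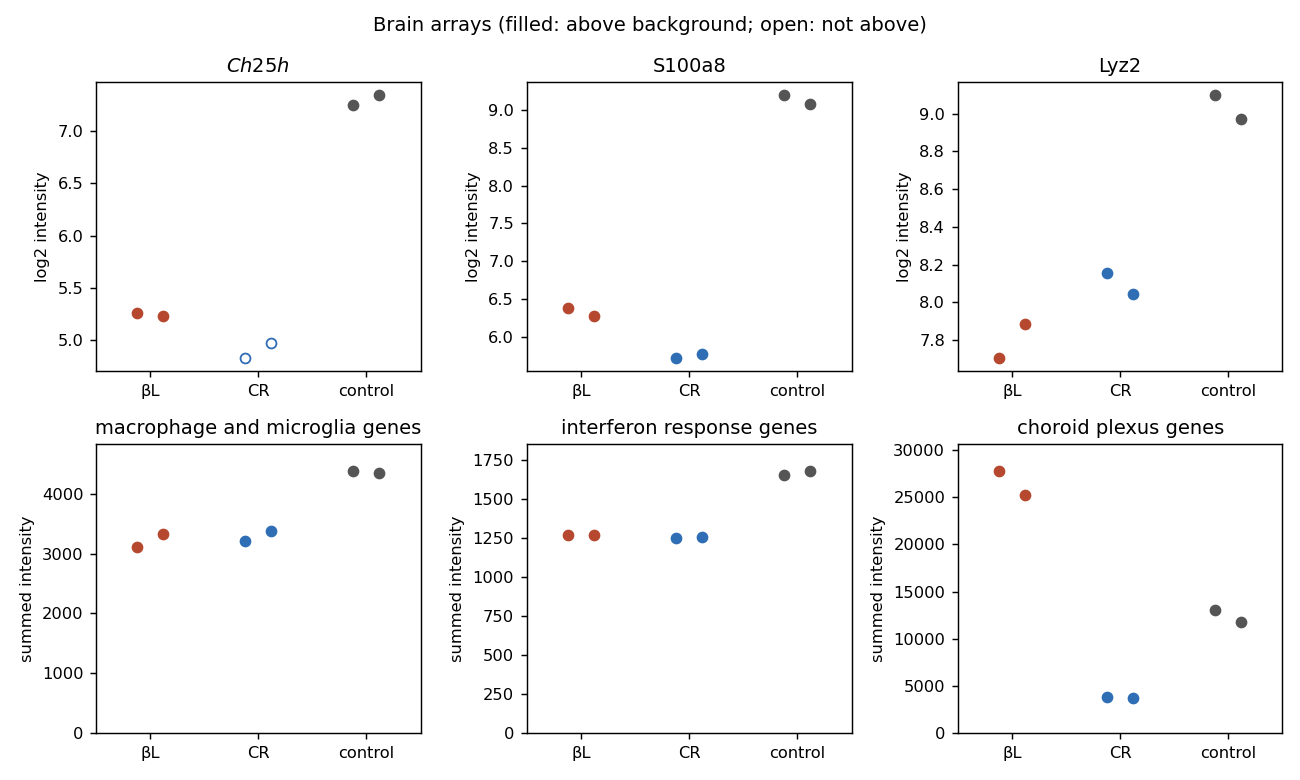
Upper row, log2 intensity of Ch25h, S100a8 and Lyz2 on the 6 brain arrays. Lower row, summed normalized intensity of the macrophage and microglia, interferon response and choroid plexus genes on the same arrays, with axes from 0. Diets run βL, CR, control from left to right, points are arrays, and open points are not above background. The control arrays are highest in every panel but that of the choroid plexus, where βL is highest.

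The genes whose pattern over the 6 brain arrays was most like that of Ch25h were S100a8 (Pearson r = 0.998), Sri (0.996), Ergic3 (0.994), S100a9 (0.993) and Lcn2 (0.990). With 6 arrays in 3 groups, these values say little more than that the control arrays stood apart from the rest in the same direction. S100a8 and S100a9, which encode a calcium-binding pair abundant in neutrophils, and Lcn2, an iron-siderophore carrier that rises in inflammation, had far lower signal on the diets. S100a8 was at 6.38 and 6.28 on βL arrays, 5.72 and 5.78 on CR arrays, and 9.19 and 9.08 on control arrays (adjusted p = 0.000108 on βL and 3.18e-05 on CR). Lcn2 was not above background on any βL or CR array, and so at least 10.8-fold lower on βL and 10.5-fold lower on CR than on control, and S100a9 likewise at least 5.67-fold and 5.52-fold lower. Both genes passed the filter through the control arrays alone. Sri and Ergic3, in contrast, differed by at most 0.22 on the log2 scale.

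Among other enzymes of oxysterol and bile acid synthesis in brain, 7 of 9 listed genes could be tested, and Ch25h was the only one that passed on either diet. Cyp46a1, the neuronal cholesterol 24-hydroxylase, had log2 fold changes of -0.13 on βL (adjusted p = 0.807) and -0.39 on CR (adjusted p = 0.459). Hsd3b7, a bile acid enzyme that acts on oxysterols, was at -0.04 on βL and -0.25 on CR (adjusted p = 0.936 and 0.538), and Cyp7b1, the oxysterol 7α-hydroxylase that takes 25-hydroxycholesterol further, at -0.01 and 0.09 (adjusted p = 0.985 and 0.866). Of the oxysterol receptors and targets of the sterol-sensing receptor LXR, 0 of 7 passed on either diet, Lpcat3, a phospholipid-remodelling LXR target, having the smallest p on CR (log2 fold change -0.39, adjusted p = 0.330).

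In muscle the same comparisons called no member. Idi1 and Ch25h were not above background on any of the 8 muscle arrays and could not be compared, and 4 members passed the filter of 2 arrays above background. Hmgcs1 was at 11.56, 11.34 and 11.47 on βL arrays, 11.12, 11.45 and 11.38 on CR arrays, and 11.51 and 11.43 on control arrays. Fdps was at 9.82, 9.79 and 9.73 on βL, 9.86, 9.91 and 9.86 on CR, and 9.85 and 9.74 on control. The diets of Hmgcs1 overlapped, and the CR arrays of Fdps lay just above the others. Of all 8898 genes tested, the CR arrays lay wholly above control for 823 and wholly above βL for 738.

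Sqle was at 6.85, 6.92 and 6.15 on βL arrays, 7.02, 6.83 and 7.37 on CR arrays, and 6.95 and 6.78 on control arrays, the spread within a diet being as wide as that between diets. Lss was above background on 3 of 8 arrays, βL replicates 2 and 3 and CR replicate 3, and on neither control array, so that it had only a bound on control and no fold. It was measured at 5.13, 5.52 and 5.76 on βL, 5.05, 5.32 and 5.52 on CR, and averaged 5.25 on control.

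With βL over control in muscle the log2 fold changes were -0.01 for Hmgcs1, -0.02 for Fdps and -0.22 for Sqle, with limma adjusted p-values of 0.986, 0.980 and 0.807. With CR over control they were -0.15, 0.08 and 0.21, with adjusted p-values of 0.948, 0.969 and 0.961. The largest difference between the diets was that of Sqle, -0.43 for βL over CR (SE 0.23, adjusted p = 0.591), which came to -0.18 without βL replicate 3 and -0.28 without CR replicate 3. Called genes made up 0.0225% of all those tested for βL over control, 0% for CR over control and 0.0225% for βL over CR, while 921, 456 and 856 genes had an unadjusted p under 0.05 in these comparisons, and the methods' t-test called 0 in each. The 95% intervals of Sqle, -0.80 to 0.36 on βL and -0.37 to 0.79 on CR, were the widest of the 3 genes. The small βL values changed sign for Hmgcs1 and Fdps without control replicate 1, for Hmgcs1 without βL replicate 2, and for Sqle and Fdps without βL replicate 3, and none passed. Without control replicate 1 the log2 fold changes were 0.026 and -0.11 for Hmgcs1, 0.042 and 0.14 for Fdps, and -0.13 and 0.29 for Sqle, on βL and CR in that order.

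**Figure D4:**
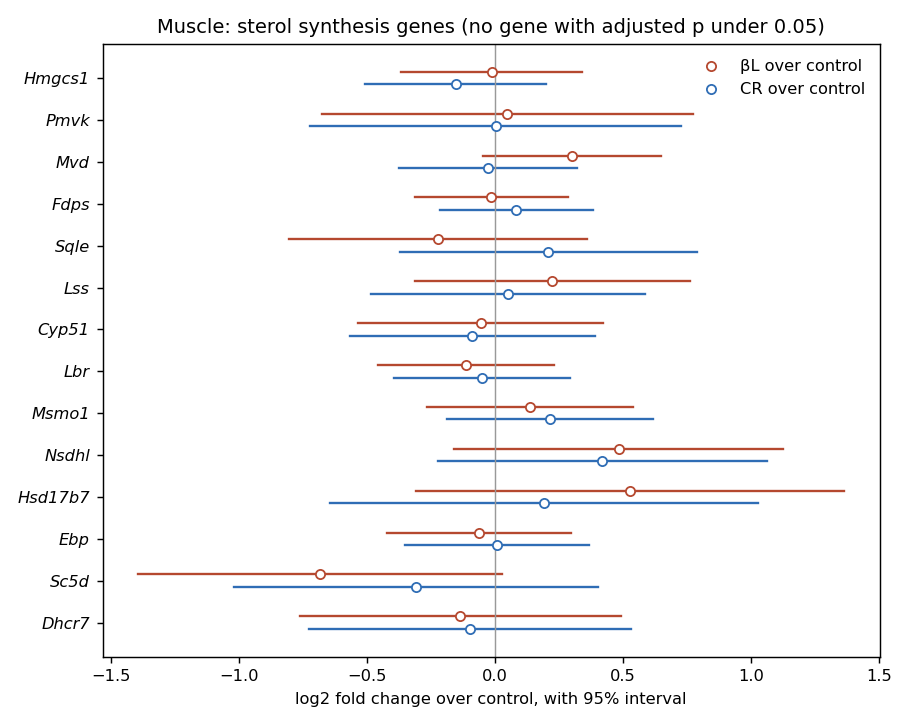
Log2 fold change over control in muscle with its 95% interval (horizontal axis) for the 14 sterol synthesis genes tested, in pathway order, with βL drawn above CR for each gene. Every interval on CR and on βL includes 0, and the widest reach beyond 1 log2 unit.

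Of the wider sterol synthesis list 14 of 23 genes could be tested in muscle and 0 passed, with median log2 fold changes of -0.01 on βL and 0.00 on CR beside -0.02 and -0.00 over all genes tested. Other sterol genes reached smaller p-values without passing. Acly, which supplies the acetyl-CoA, was at 0.93 on βL and 0.77 on CR (adjusted p = 0.375 and 0.932), Npc2, a lysosomal cholesterol carrier, at 0.80 and 0.62 (adjusted p = 0.368 and 0.932), and Insig1 at 0.71 and 0.65 (adjusted p = 0.400 and 0.932). Cyp7b1 was at -0.69 on βL and -0.61 on CR (adjusted p = 0.407 and 0.938), and Cyp27a1, the sterol 27-hydroxylase, at -0.60 and -0.13 (adjusted p = 0.384 and 0.969). Without muscle control replicate 1 the βL and CR values were 0.89 and 0.73 for Acly, 0.55 and 0.37 for Npc2, 0.65 and 0.59 for Insig1, -0.55 and -0.47 for Cyp7b1, and -0.35 and 0.13 for Cyp27a1, with adjusted p-values of at least 0.874.

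Markers of other cells in muscle are given beside these values, none of the genes tested being called. All 6 white adipocyte genes tested were above 0 on both diets (median log2 fold change 1.51 on βL and 1.02 on CR, 0 of 6 called). The list summed to 5377 to 12941 on βL arrays, 3792 to 8250 on CR arrays, and 1536 to 5942 on control arrays, with Retn not above background on any. The low end on control was replicate 1, as in the lists summed below. Replicate 2, at 5942, lay within the adipocyte ranges of both diets. Slow muscle fibre genes summed to 83009 to 184790 on βL, 33238 to 136787 on CR, and 762 to 140527 on control, the low end on control being replicate 1. Macrophage genes summed to 2405 to 6538 on βL, 1150 to 2074 on CR, and 1258 to 2507 on control. Red cell genes summed to 44055 to 60249 on βL, 19724 to 27533 on CR, and 17628 to 22816 on control, with all 3 genes tested above 0 on βL (median log2 fold change 2.74, 0 called). The part of these cells, and of the hepatocyte genes on control replicate 1, in the muscle values was not tested.

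The tissues, in contrast, differed clearly in the synthesis genes, on all 14 arrays normalized together. Sqle was lowest at 10.99, with a median of 11.09 and a maximum of 11.19, on the brain arrays, against 6.46, 7.18 and 7.61 on the muscle arrays. Hmgcs1 ran at 13.75, 13.90 and 14.20 in brain, against 11.08, 11.37 and 11.49 in muscle. Fdps ran at 10.78, 10.91 and 11.02 in brain, against 9.79, 9.89 and 9.96 in muscle. For each of these genes the lowest brain array lay above the highest muscle array. The same held for Lss and for Idi1, although Idi1 was not above background in muscle. How many of all genes tested separated in this way was not counted, so the separation cannot be set against a share. Of all genes tested 38.2% were called higher in brain.

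The log2 fold of brain over muscle was 3.95 for Sqle (SE 0.12, 15.4-fold, limma adjusted p = 1.26e-11), 2.58 for Hmgcs1 (SE 0.08, 5.99-fold, adjusted p = 9.67e-12) and 1.03 for Fdps (SE 0.06, 2.05-fold, adjusted p = 9.50e-09). Lss was 1.44 higher (SE 0.16, 2.71-fold, adjusted p = 3.88e-06), with 6 of 6 brain arrays and 3 of 8 muscle arrays above background. The test called all 6 members with a probe higher in brain, beside 38.2% of all genes tested, but Idi1 and Ch25h were below background throughout muscle and their brain means lay below the bound there, so no fold is given for them. The call of Ch25h was lost with the methods' t-test (adjusted p = 0.142). It was also lost with a replicate block (adjusted p = 0.266), but that fit compared single replicate levels of the tissues and not their means. The second probe of Sqle was above background on every brain array and on no muscle array, so no fold is given for it. Without muscle control replicate 1 the log2 folds were 3.94 for Sqle, 2.58 for Hmgcs1, 1.04 for Fdps and 1.57 for Lss. Before background correction and normalization, diet means of Sqle were 2063 to 2222 in brain and 231 to 248 in muscle. Those of Hmgcs1 were 10571 to 11508 in brain and 2419 to 3160 in muscle. These raw gaps were narrower than the folds above.

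The tissue difference held within each diet for the 3 well-measured genes. For Sqle it was 4.23 among βL arrays, 3.73 among CR arrays and 3.87 among control arrays, for Hmgcs1 2.67, 2.70 and 2.38, and for Fdps 1.11, 0.96 and 1.03. Ch25h depended on diet, since its brain level was above the muscle bound on the control diet alone, by at least 2.35-fold. On βL and on CR its brain mean lay below that bound. Idi1 exceeded the muscle bound in brain on βL alone, by at least 1.23-fold, and neither bound was tested.

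Across the wider list, 14 of the 16 sterol synthesis genes tested were above background in both tissues. Of these 11 were called higher in brain and 2 lower, beside 4135 higher and 4830 lower of all 10827 genes tested. The median over all 16 was 0.87, beside -0.10 over all genes tested. Msmo1, the sterol methyl oxidase, was 3.14 higher in brain (adjusted p = 1.94e-12) and Cyp51 2.22 higher (adjusted p = 5.85e-10), while Lbr, a sterol reductase of the nuclear envelope, was 1.75 lower (log2 fold change -1.75, adjusted p = 1.20e-10) and Sc5d was at -0.63 (adjusted p = 0.00297). The regulators Srebf2, which encodes SREBP2, Scap, its escort protein, and Insig1 were higher in brain by 1.85, 1.40 and 1.71, whereas Insig2, the other INSIG gene, was lower.

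The enzymes that turn cholesterol into oxysterols split between the tissues. Cyp46a1 was at least 7.60-fold higher in brain, being above background on 6 of 6 brain arrays and 0 of 8 muscle arrays. It thus passed the filter through brain alone, and no p-value is given. Cyp7b1 was 2.27 higher (limma adjusted p = 6.28e-09). Cyp27a1 had a log2 fold of -3.80 (adjusted p = 2.54e-12) and Hsd3b7 one of -2.22 (adjusted p = 7.54e-11), both being higher in muscle. The receptor LXRα (Nr1h3), which is activated by oxysterols, was at -4.17 (adjusted p = 3.86e-14), while Abcg1, a sterol exporter that LXR induces, was above background on 6 of 6 brain arrays and 1 of 8 muscle arrays.

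**Figure D5:**
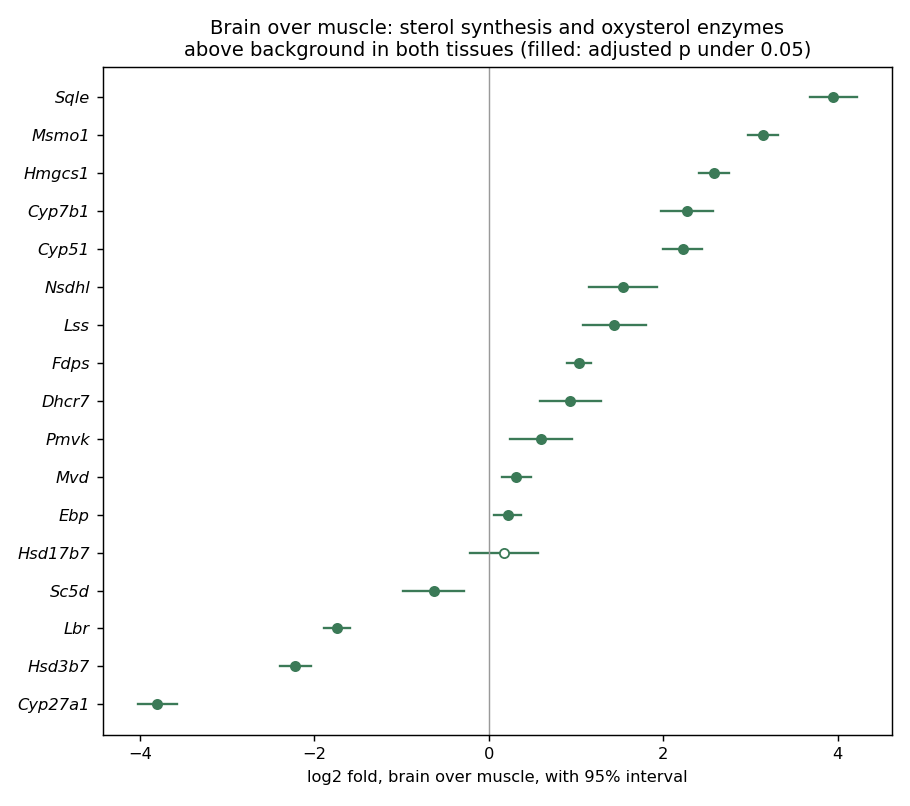
Log2 fold of brain over muscle with its 95% interval (horizontal axis) for the sterol synthesis genes and the oxysterol and bile acid enzymes that were above background in both tissues, sorted by size. Values right of 0 are higher in brain. Sqle, Msmo1 and Hmgcs1 lie furthest right and Cyp27a1, at -3.80, furthest left.

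Whether the diets acted differently in brain and in muscle was tested as an interaction over 10827 genes. No member passed for CR, where 0.00924% of genes did, or for βL, where 0.0369% did. The 5 synthesis genes differed by -0.44 to 0.32 for CR and by 0.06 to 0.43 for βL (brain effect minus muscle effect, log2). Ch25h had the largest values, -2.34 for CR (SE 0.42, limma adjusted p = 0.230) and -1.86 for βL (adjusted p = 0.204), with its muscle side below background throughout. With each tissue normalized on its own both values passed, at -2.59 for CR (adjusted p = 0.0107) and -2.05 for βL (adjusted p = 0.0234).

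As a last description, the genes most like the mean of the scaled synthesis genes were taken in each tissue. In brain (6 arrays, 5 members) they were Tnnt1 (r = 0.990), Cerk (0.985), Sec61a2 (0.981), Eps8l2 (0.979) and Ints6l (0.977), all at their highest on βL. Tnnt1, a slow troponin gene, was at 8.08 and 8.49 on βL arrays, 7.52 and 7.65 on CR arrays, and 7.50 and 7.52 on control arrays (adjusted p = 0.154 for βL over control). In muscle (8 arrays, 4 members) they were Denr (0.947), Krtcap3 (0.937), Smarca2 (0.927), Ap3d1 (0.923) and Rab1a (0.918), none of which passed between diets. The arrays of a tissue share their normalization, and likeness of pattern over so few arrays is given without a test.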

How the data were processed

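Muscle (8 arrays) and brain (6 arrays) RNA was measured on Illumina BeadChips with 25697 probes, and groups follow the labelled tissue and diet. The authors deposited intensity values per probe before normalization, read in BeadStudio, with a detection p-value for each, and a second table of intensity values normalized by quantiles, which served as an alternative. Of the probes 23978 carry 1 gene symbol, 0 several and 1719 none.

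Here background was modelled by normexp (offset 16), with the negative-control level worked out from the detection p-values, followed by quantile normalization within a tissue, or over all 14 arrays for tissue comparisons, and log2 (limma 3.58.1, R 4.3.3). Genes needed a detection p under 0.05 on 2 arrays (8898 genes in muscle, 9956 in brain, 10827 over all), and the brightest probe stood for a gene. Contrasts were fitted with lmFit and eBayes, adjusted by Benjamini-Hochberg over all genes and called at an adjusted p under 0.05. Where a probe was below background throughout a group, only a limit on the fold is given. For it each dim array is set to the lowest signal called above background on that array, or to the probe's own signal if that is higher.

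The members and gene lists were chosen with earlier results of these data known. Genes named are the members, list genes that passed or had the smallest p-values per contrast (up to 4 a list), and the 5 genes most like the members in pattern. Other list genes in the tissue comparison, and Cx3cr1, were picked with their values known. The steps were checked on simulated data. Alternatives tried were the background correction, offset, normalization, deposited values, filter, probe rule, samples fitted, array weights, the t-test of the study's methods, a replicate block and leaving out each array.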

Additional observations from a re-analysis of the deposited data

How the results depend on the processing

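Of 951 values of single genes recomputed under the alternatives, 919 kept their direction and side of the threshold, 26 changed sign (none of them past the threshold on either side), 4 lost a call and 2 gained one. Ch25h stayed called lower in brain on βL and on CR under each alternative but the methods' t-test, which called 0 members on either diet. Leaving out each array gave log2 differences of -2.09 to -1.996 on βL (adjusted p at most 0.0279) and -2.45 to -2.31 on CR (adjusted p at most 0.0117), the lone array of a diet then being assumed to vary like the others. With each tissue normalized on its own 1 member, Ch25h, was called in each interaction. No t-test was run for the interactions.

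Values near 0 changed sign as follows. With a replicate block Lss on CR in muscle was at -0.078. The mean of the Sqle probes gave -0.040 for βL over CR in brain and 0.13 for the CR interaction, and normalizing each tissue alone put Idi1 at 0.064 in the CR interaction. With single arrays left out, muscle βL over control ranged between -0.067 and 0.043 for Hmgcs1, -0.073 and 0.042 for Fdps, -0.36 and 0.023 for Sqle, and -0.022 and 0.47 for Lss, and muscle CR over control between -0.19 and 0.29 for Lss. In brain Fdps ranged between -0.019 and 0.14 on βL, -0.071 and 0.091 on CR, and -0.017 and 0.12 for βL over CR, and Hmgcs1 between -0.030 and 0.13 for βL over CR. The CR interaction ranged between -0.16 and 0.026 for Fdps and -0.21 and 0.11 for Idi1, and the βL interaction between -0.32 and 0.42 for Lss and -0.0050 and 0.18 for Fdps. The cause was not tested.

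Whether replicate numbers pair the samples could not be told. Deviations of same-numbered arrays correlated at -0.11 to 0.18 in brain and -0.21 to 0.19 in muscle. With 2 arrays in a group the deviations mirror each other, so differently numbered brain arrays gave the same values with opposite sign. Pairing of brain with muscle was not examined. The replicate block kept 1 member called in brain on βL (adjusted p = 0.00288) and on CR (adjusted p = 0.00134), with 31 and 15 genes called in all against 33 and 23 without it. Over all genes tested in brain, 33 were called on βL and 23 on CR, against 69 and 36 in the deposited normalized values, 62 and 32 without background correction, and 59 and 31 with an offset of 50. With the other diet left out of the fit 27 and 8 were called, and without brain control replicate 1 or 2 only 3 or 2 on βL and 3 or 3 on CR. In muscle, leaving out control replicate 2 raised the genes called on βL to 33 against 2 and on CR to 5 against 0, and those called in the interactions to 100 against 4 for βL and 38 against 1 for CR, with 0 members among them. Signal over background limits what can be said of Idi1 and Ch25h in muscle and of Ch25h on CR in brain.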
